A study of Mus musculus with 40 samples.

Results

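Dorsal root ganglia taken 7 days after spared nerve injury were compared with ganglia of naive mice, across every gene the arrays measured. The samples were chosen by their titles, which gave 3 arrays at 7 days (sampled at 168 h) and 7 naive arrays, 10 of the 40 arrays of the series. All 40 hold total RNA of dorsal root ganglia from adult male C57BL/6J mice aged 9 to 10 weeks, labelled with biotin and measured on Illumina bead arrays, and the other arrays cover further times up to 10 days after the injury. In spared nerve injury, done under isoflurane, the sciatic nerve loses its tibial and common peroneal branches, which are tied and cut, and keeps its sural branch whole. The naive mice carry no such operation and no sham-operated group was analysed here, so effects of the surgery and of the nerve injury cannot be told apart. The labels do not give the spinal level or side of the ganglia, nor whether mice were pooled for an array. P-values therefore measure only the scatter among these samples, which may be partly technical, and ganglia at the levels that feed the sciatic nerve also hold neurons that the cut spared.

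A dorsal root ganglion holds the cell bodies of the sensory neurons of one body segment, wrapped by satellite glia and reached by Schwann cells, macrophages, blood vessels and connective tissue. When a peripheral axon is cut, the neuron switches on a set of injury genes headed by the transcription factor Atf3, makes neuropeptides that are scarce in intact adult neurons, such as Npy and galanin, and turns down several receptors and ion channels of its resting state. Macrophages gather around injured cell bodies, and Csf1 made by injured neurons is one signal that acts on them. Spared nerve injury is a standard model of neuropathic pain in rodents.

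Atf3 and its partner Jun bind the AP-1 motif (TGACTCA, read as TGAGTCA on the other strand) and the related CRE motif (TGACGTCA), so the promoters of the genes with the largest rises are shown where they hold one of these strings of letters upstream of the start. Promoters are the RefSeq windows of GRCm38.p6, from 250 bases before to 50 bases after each gene's start, and both strands were searched. Each line gives the stretch around the match, 5′ to 3′ in the direction of the gene, with the match in capitals.
Sprr1a, chr3:92485971-92486047, minus strand: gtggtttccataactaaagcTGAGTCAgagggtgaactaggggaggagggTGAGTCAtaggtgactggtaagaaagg
Lipn, chr19:34067190-34067236, plus strand: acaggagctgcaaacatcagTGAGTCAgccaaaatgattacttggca
Nts, chr10:102490599-102490645, minus strand: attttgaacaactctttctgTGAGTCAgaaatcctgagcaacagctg
Ucn, chr5:31138912-31138959, minus strand: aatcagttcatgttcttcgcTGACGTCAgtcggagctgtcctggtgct
Sprr1a, a small proline-rich protein that promotes axon outgrowth, carries 2 AP-1 matches, the farther one 146 bases before the start. It is the only one of the 9 of the 12 largest rises with a promoter in the table that holds either motif. Lipn, Nts and Ucn come from the next 12 rises, which were chosen after their values were seen. The AP-1 motif lies in 9.52% of 315 promoters of genes called higher at 7 days, in 8.24% of 182 promoters of genes called lower, and in 5.07% of the 8488 promoters of genes tested. For the CRE motif these shares are 2.22%, 1.65% and 3.32%. These are letter matches, not sites of binding.

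Of 10519 genes tested, 636 (6.05%) differed between 7 days and naive at an adjusted p under 0.05 (limma, Benjamini-Hochberg over all genes). Of these, 415 (3.95%) were higher and 221 (2.10%) were lower at 7 days. The rises were larger than the falls: 73 genes were at least 2-fold higher and 3 at least 2-fold lower, while 178 of the 221 lower genes fell by less than 1.5-fold. The median log2 difference was 0.57 among genes called higher, -0.45 among genes called lower and -0.02 over all genes. Over all genes 4636 differences were positive and 5883 negative. The filter on dim probes counted detection over all 40 arrays, most of them injured, so it could favour rises over falls. With probes filtered by detection on the compared arrays, 567 of the 636 called genes were still tested. That filter gave 574 calls, 351 higher and 223 lower, so the excess of rises over falls depended in part on the filter. The shares called, 3.95% higher and 2.10% lower, stand against every list count below. All 3 arrays at 7 days lay above all 7 naive arrays in 566 genes (5.38%) and below them in 437 (4.15%), and 560 of the 636 called genes were among these. The count of calls rested in part on 7-day array 2: without it, with 2 arrays left, 305 genes were called, 224 higher and 81 lower. Scaling the arrays to one median in place of quantile normalization left 310 calls, 245 higher and 65 lower. In whole ganglia, fewer cells of a type and less RNA per cell cannot be told apart, in every result that follows.

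The 10 arrays had a median signal of 138 to 244.5 intensity units, and 8966 to 9117 genes lay above the detection level of 6.85 on the log2 scale. The number of arrays limits the precision: a difference between 7 days and naive had a median standard error of 0.128. No array repeated another. Atf3, the injury marker, lay between 6.89 and 7.54 on the naive arrays and at 8.45 or more on every injured array of the series, so no array went against its label. Skeletal muscle RNA was uneven in both groups: the summed signal of 22 muscle markers was 17950 on naive array 6 and 12080 on 7-day array 2. It was 7842 on 7-day array 3, 3330 on 7-day array 1 and 2406 to 4130 on the other naive arrays. Without naive array 6 and 7-day array 2, with 7-day array 3 kept, 278 genes were called, 210 higher and 68 lower, while a fit with the muscle level as a covariate called 659. The rule for named genes, with the next 12 rises and falls chosen after their values were seen, gave 118 called genes. Of these, 34 missed the threshold under median scaling and 32 without 7-day array 2. With neqc, another background correction that leans on the deposited detection p-values, 35 of these differences were over 1.5 times closer to 0, and its value stands beside those that are named. On 37 of 40 arrays those p-values do not follow the array's own signals. How far the neqc sizes can be trusted was not tested.

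The neuropeptide Npy, an inhibitory transmitter that intact sensory neurons hardly make, rose the most. Its normalized log2 signal ranged from 6.73 to 8.02 on the naive arrays (median 7.17) and was 12.44, 13.10 and 12.73 on the 7-day arrays. No 7-day array came near the naive range. The difference was 5.48 ± 0.25 (log2, standard error; n = 3 and 7), a 44.5-fold rise (adjusted p = 8.62e-18). Galanin (Gal), a neuropeptide of injured and developing sensory neurons, was already well above detection in naive ganglia. It ranged from 10.58 to 11.32 there (median 11.05) and was 13.43, 13.96 and 13.89 at 7 days, a rise of 2.75 ± 0.14 (adjusted p = 1.7e-16). Every 7-day array lay above the highest naive array.

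Atf3 itself was 10.90, 11.04 and 10.86 on the 7-day arrays and 6.89 to 7.54 on the naive arrays (median 7.25). The difference was 3.67 ± 0.16, or 12.8-fold (adjusted p = 3.71e-18), and the 7-day arrays lay within a narrow range of each other. Sprr1a, whose promoter is printed above, was 11.17, 11.82 and 11.93 at 7 days against 6.90 to 8.08 in naive ganglia (median 7.33), a rise of 4.21 ± 0.22. Its lowest 7-day array was far above the highest naive array.

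A pair of receptors was among the 4 largest rises. Gpr151, an orphan receptor related to the galanin receptors, was 11.28, 11.71 and 11.44 at 7 days and 6.90 to 7.48 in naive ganglia (median 7.19), a rise of 4.31 ± 0.15 (adjusted p = 2.19e-20). Cckbr, the brain-type receptor for cholecystokinin, was 10.76 to 11.02 over the 3 arrays at 7 days against 6.40 to 7.59 (median 7.19), a rise of 3.91 ± 0.23. On 2 of the 7 naive arrays Cckbr lay below the detection level, as Npy did on 2. Both receptors lay near the detection level in naive ganglia and far above it at 7 days.

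The membrane peptidase Ecel1, which injured neurons make, was 9.46, 10.00 and 9.65 at 7 days and 6.44 to 6.98 in naive ganglia (median 6.63), a log2 difference of 3.03 ± 0.18 (neqc 1.71). Only 2 of its naive arrays lay above the detection level, so the size of this rise is uncertain. Speer3, of a mouse gene family known from the testis, lay above detection on none of the 7 naive arrays and at 9.03, 8.91 and 8.96 at 7 days. With the main background correction its rise was therefore at least 4.33-fold, but neqc gave a log2 difference of 1.16, which is below that bound. Its probe was kept through injured arrays alone, so the filter favoured a rise and its call is not separate support. Car3, a carbonic anhydrase abundant in muscle and fat, was 9.69, 9.90 and 9.65 at 7 days and 6.59 to 7.73 in naive ganglia (median 7.00), a rise of 2.61 ± 0.38 (adjusted p = 9.07e-06). Of the 7 naive arrays 4 lay above the detection level, and neqc gave 1.61. In each group Car3 was highest on the array with the highest muscle sum, 7-day array 2 (9.90) and naive array 6 (7.73). Naive array 7 was nearly as high in Car3 (7.72), with a muscle sum of only 3638. Without naive array 6 and 7-day array 2 the difference was 2.63 ± 0.46, and with the muscle level as a covariate 2.39 ± 0.28. Car3 was 1 of 9 adipocyte markers and the only one of them called higher; their summed signal overlapped between the groups.

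The remaining large rises were of Sez6l, a neuronal membrane protein (2.46 ± 0.15), Tubb6, a beta-tubulin (2.38 ± 0.27), and Kif22, a kinesin that moves chromosomes (2.32 ± 0.12). Sez6l has a second measured probe, and with the mean of its probes the rise was 1.25. Tubb6 was the least even of these at 7 days, with 10.55 on array 1 and 11.72 and 11.47 on the others, all above the highest naive array at 9.59. Kif22 was 11.36, 11.43 and 11.16 against 8.85 to 9.12.

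**Figure D1:**
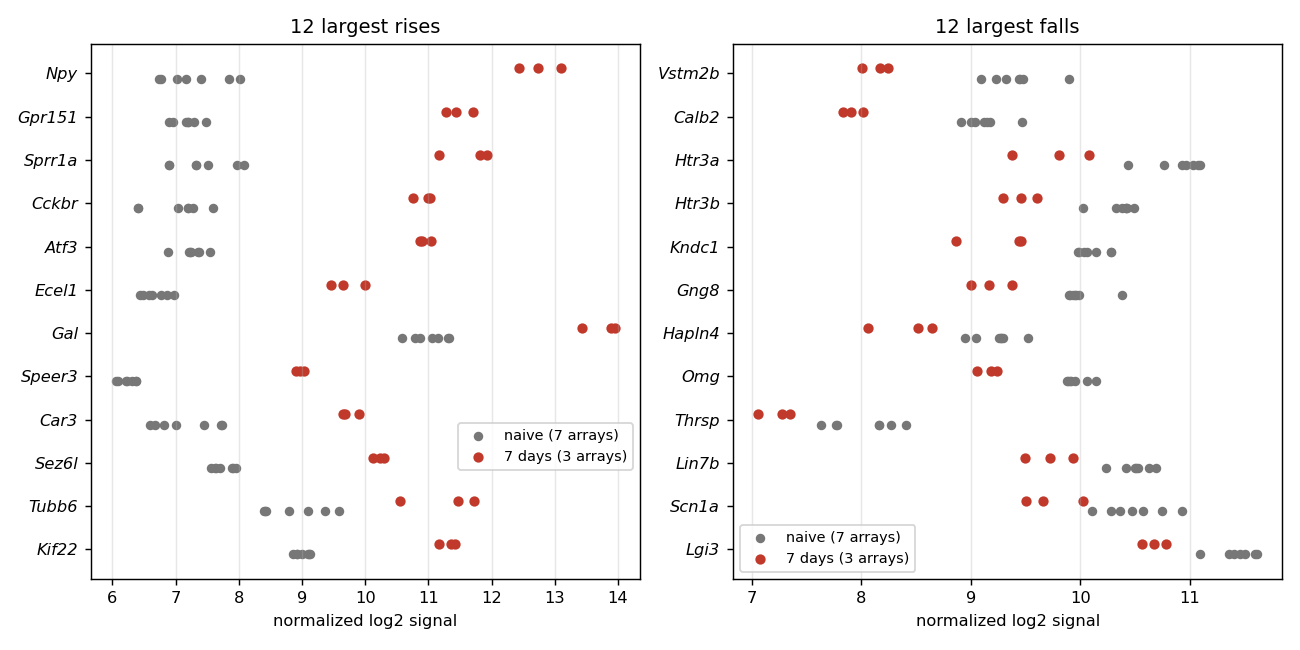
Normalized log2 signal (horizontal axis) of the 12 genes with the largest rises and the 12 with the largest falls that passed the test, 1 point per array, grey for the 7 naive and red for the 3 arrays at 7 days. By the rule that chose them the groups do not overlap; the rises span 2.32 to 5.48 on the log2 scale and the falls 0.76 to 1.28.

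Of 28 measured members of a list of nerve-injury and regeneration genes, 20 were called higher and none lower, with a median log2 difference of 1.21 against -0.02 over all genes. Since this list was drawn up with results of these arrays known, its count is not independent evidence. Beyond the genes above, Flrt3, an adhesion protein of axon guidance, rose by 2.04 ± 0.12. Tnfrsf12a, the receptor of the cytokine Tweak, rose by 1.54. The members that did not pass included Gap43, a growth cone protein (0.85), the transcription factor Stat3 (0.10) and the neurotrophin Bdnf (0.02). Bdnf was 10.02, 9.99 and 10.06 at 7 days, inside its naive range of 9.75 to 10.31.

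Among 23 regeneration transcription factors 5 were higher and 1 was lower. After Atf3 came Nfil3, a repressor that shares Atf3-type sites (1.00 ± 0.16), Csrnp1 (0.83 ± 0.13) and Jun (0.79 ± 0.16), which was 10.72, 10.73 and 10.71 at 7 days against 9.83 to 10.03 in naive ganglia. The factor that fell was Isl1, which sets sensory neuron identity, by 0.29 on the log2 scale, a call lost without 7-day array 3 (adjusted p = 0.0754). Of 13 immediate-early genes Jun was the only one called, and Fos differed by 0.07.

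The stress list, 27 genes of the Atf4 pathway and of growth arrest, had 9 higher and none lower (median 0.28). Of all genes 3.95% were higher. Gadd45a, a growth-arrest and DNA-damage protein, was 12.12, 11.97 and 11.78 at 7 days against 9.59 to 10.56 in naive ganglia (median 9.95), a rise of 1.96 ± 0.18 (adjusted p = 1.11e-09). The cell cycle inhibitor Cdkn1a rose by 1.28 ± 0.12 and Chac1, a glutathione-degrading target of Atf4, by 1.26 ± 0.13. Amino acid transporters Slc7a5 (0.52) and Slc7a3 (0.43) and the serine synthesis enzyme Psat1 (0.52) passed with smaller rises. The chaperone Hspa5 and the stress factor Ddit3 did not pass (-0.32 and 0.34). The list had 5 calls without 7-day array 2 and 5 under median scaling.

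The largest fall was smaller than any of the 12 largest rises. Vstm2b, a membrane protein of the immunoglobulin family, was 8.00, 8.17 and 8.24 at 7 days and 9.09 to 9.90 in naive ganglia (median 9.44). It fell by 1.28 ± 0.16 on the log2 scale (adjusted p = 4.84e-07). Calb2, the calcium-binding protein calretinin of some large mechanoreceptors, was 7.90, 7.83 and 8.01 against 8.91 to 9.47 (median 9.12) and fell by 1.21 ± 0.14 (adjusted p = 1.22e-07; neqc -0.79). Its highest 7-day array lay well under its lowest naive array.

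Both subunits of the serotonin-gated cation channel fell. Htr3a was 10.08, 9.37 and 9.80 at 7 days and 10.43 to 11.10 in naive ganglia (median 10.96), a fall by 1.15 ± 0.21 (adjusted p = 0.000379). Htr3b was 9.61, 9.30 and 9.45 against 10.02 to 10.49 (median 10.41) and fell by 0.90 ± 0.14. The 7-day arrays kept the same order in both genes, lowest on array 2. Among the other large falls were Kndc1, a Ras exchange factor of neurons (0.86 ± 0.12), Gng8, a G protein gamma subunit (0.82 ± 0.17), and Lin7b, a synaptic scaffold protein (0.79 ± 0.10), each given as the size of the fall. Hapln4, a link protein of the matrix around neurons, fell by 0.82 ± 0.19 and lost its call without 7-day array 2 (adjusted p = 0.132). Omg, a myelin-associated glycoprotein also made by neurons, fell by 0.80 ± 0.13. Thrsp, a regulator of fat synthesis and an adipocyte marker, fell by 0.80 ± 0.22 (neqc -0.35) and lost its call without any one of the 7-day arrays (adjusted p up to 0.185).

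Voltage-gated channels and channels of sensory transduction were lower or did not pass, with 1 exception. All 8 measured sodium channel genes had negative log2 differences, as had 5883 of all 10519 genes. Of the 8, 3 were called lower (median -0.24), against 2.10% of all genes, and these 3 recur in the neuron marker lists below. Scn1a, a channel of large, fast-conducting neurons, was 10.03, 9.50 and 9.66 against 10.11 to 10.93 (median 10.47) and fell by 0.77 ± 0.15 (adjusted p = 0.00091). The auxiliary subunit Scn4b fell by 0.51 ± 0.11 and was not called without 7-day array 2 (adjusted p = 0.0667). The nociceptor channel Scn11a fell by 0.25 ± 0.07, a call lost with 5 of the 10 arrays taken out in turn (adjusted p up to 0.323). Scn10a, the other main nociceptor sodium channel, was 11.34, 11.28 and 11.62 at 7 days, inside its naive range of 11.25 to 11.92, and did not pass (-0.15 ± 0.13, adjusted p = 0.698). Without 7-day array 2 the list had 1 call, and under median scaling none (limma, 3 at an unadjusted p under 0.05), where Scn1a had an adjusted p of 0.0533.

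Of 32 potassium channel genes 7 were lower and none higher (median -0.20), against 2.10% of all genes called lower. A negative difference was found in 27 of the 32, and in 5883 of all 10519 genes. Kcnk18, a background channel of sensory neurons, was 7.27, 7.58 and 7.58 at 7 days against 7.88 to 8.61 (median 8.03), a fall by 0.65 ± 0.15 (adjusted p = 0.00418; neqc -0.31). Kcnc1, a fast channel of large neurons, fell by 0.60 ± 0.15, and Kcnip1, a channel-interacting protein, by 0.60 ± 0.18 (neqc -0.31). Kcns1, a modulatory subunit, fell by 0.57 ± 0.14 (neqc -0.29) with 7-day arrays 1 and 2 inside the naive range. The widest difference of the list, Kcna1 with -0.69, did not pass. All 4 of these calls were lost without some array: Kcnk18 without 7-day array 1 (adjusted p = 0.063), Kcnc1 without array 2 (0.0856), Kcns1 without array 3 (0.116) and Kcnip1 without any of 4 arrays (up to 0.214). The list had 4 calls without array 2 and 4 under median scaling.

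The exception was Cacna2d1, the calcium channel subunit bound by gabapentin, the only called gene of 13 calcium channel genes. It was 12.03, 12.67 and 12.43 at 7 days and 11.26 to 12.06 in naive ganglia (median 11.83), so array 1 lay inside the naive range. The rise was 0.63 ± 0.17 (adjusted p = 0.0189), and it was not called without 7-day array 2 (adjusted p = 0.254) or 3. The call was also lost under median scaling and with arrays blocked by sample number. With the replicate number as a block the rise was 0.38 (limma, adjusted p = 0.388). Of 22 channels of heat, acid, touch and ATP sensing, Hcn2, a pacemaker channel, fell by 0.52 ± 0.15 and the acid-sensing Asic1 by 0.43 ± 0.09. Hcn2 lost its call in 5 of the 10 omissions, those of each 7-day array among them (adjusted p up to 0.202). Asic1 lost its call under median scaling (0.0571) and with the replicate number as a block (0.0711). The capsaicin receptor Trpv1 did not pass: it was 9.74, 8.95 and 9.12 at 7 days and 9.17 to 10.02 in naive ganglia (-0.27 ± 0.21, adjusted p = 0.64).

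Of 20 markers of large-fibre neurons, those of touch and position sense, 9 were called lower and none higher (median -0.38), against 2.10% of all genes called lower. Beside Calb2 and Scn1a, Etv1, a transcription factor of proprioceptors, fell by 0.81 ± 0.18, although array 1 (9.15) lay inside the naive range of 8.86 to 9.62, and the call was lost without array 2 or 3 (adjusted p up to 0.1). Whrn, a scaffold protein of proprioceptors, fell by 0.70 ± 0.12. The neurofilaments Nefh (-0.23), Nefm (-0.35) and Nefl (-0.15) and parvalbumin (Pvalb, -0.57) did not pass. The summed signal of the 20 markers was 65500 to 71790 on the naive arrays and 55450 to 61070 at 7 days, with no overlap. Leaving out 7-day array 2 gave 4 calls, as did median scaling.

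Of 16 markers of nonpeptidergic nociceptors, the unmyelinated neurons that end in the skin, 2 were lower (median -0.23). Lgi3, a secreted protein of neurons, was 10.78, 10.56 and 10.68 against 11.09 to 11.62 (median 11.46) and fell by 0.76 ± 0.12 (adjusted p = 1.73e-05); Scn11a is the other. The receptor Mrgprd, the type marker, was 9.97, 9.47 and 9.21 at 7 days and 9.19 to 10.04 in naive ganglia, with a difference of -0.03 ± 0.19. The summed signal of the 16 genes was 26790 to 29000 at 7 days, below 31470 to 33320 in naive ganglia.

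Of 8 peptidergic nociceptor markers 1 was higher and 1 lower. The neuropeptide Adcyap1 (PACAP) was 11.66, 11.88 and 11.74 against 10.82 to 11.11 (median 10.91), a rise of 0.81 ± 0.12 (adjusted p = 7.98e-06). Tmem100, a membrane protein of nociceptors, fell by 0.47 ± 0.14 and lost its call in 7 of the 10 omissions of an array (adjusted p up to 0.31). Of 14 nociceptor peptides and granins, Vgf and Adcyap1 were higher and Cartpt, Chga and Nmb lower. Vgf, a granin that yields several peptides, was 12.11, 12.08 and 11.94 at 7 days and 10.27 to 11.13 in naive ganglia (median 11.04), a rise of 1.21 ± 0.16. Cartpt fell by 0.71 ± 0.18, though not without 7-day array 2 (adjusted p = 0.224), and chromogranin A (Chga) by 0.49 ± 0.11, a call lost under median scaling (adjusted p = 0.0953). Substance P precursor Tac1 did not pass (-0.31). The lower calls of this list numbered 1 without 7-day array 2 and 0 under median scaling (limma, 4 lower at an unadjusted p under 0.05).

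Of 17 pan-neuronal and sensory identity genes 2 were lower, against 2.10% of all genes: Rbfox3 (by 0.30 ± 0.07) and Isl1 (by 0.29 ± 0.07), and the median of the list was -0.07. Rbfox3 was not called without 7-day array 1 or 2 (adjusted p up to 0.0919), nor Isl1 without array 3, and under median scaling limma called neither (2 lower at an unadjusted p under 0.05). The list's summed signal was 124900 to 128700 at 7 days, inside the naive range of 121200 to 132300. Of 24 genes of synaptic release 4 were lower and none higher. Cplx2, a clamp of vesicle fusion, fell by 0.84 ± 0.19, with array 1 (9.53) inside the naive range of 9.46 to 10.27. The vesicle proteins Vamp1 (by 0.70 ± 0.12, with -0.45 for the mean of its probes) and Sv2b (by 0.56 ± 0.11) and the Rab3 effector Rph3a (by 0.53 ± 0.13) fell beside it. Cplx2 was not called without 7-day array 2 (adjusted p = 0.106), nor Rph3a without array 3 (0.0534).

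Of 26 transmitter receptor genes 5 were lower and 1 higher. Beside the serotonin channel, the nicotinic subunit Chrna6 fell by 0.66 ± 0.15, at the threshold without 7-day array 2 (adjusted p = 0.0502). Gabrg1, a GABA-A receptor subunit, was the member that rose (0.61 ± 0.13, neqc 0.26): it was 7.85, 7.95 and 7.94 at 7 days against 7.02 to 7.55. Of 9 inhibitory receptors coupled to G proteins, Adra2c, an adrenergic receptor, fell by 0.55 ± 0.13 (neqc -0.28), and it lost its call without 7-day array 2 (adjusted p = 0.127). The lower calls among transmitter receptors then numbered 2, and 3 without array 1 or under median scaling. The Npy receptor Npy1r did not pass, with a difference of 0.01 ± 0.12.

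**Figure D2:**
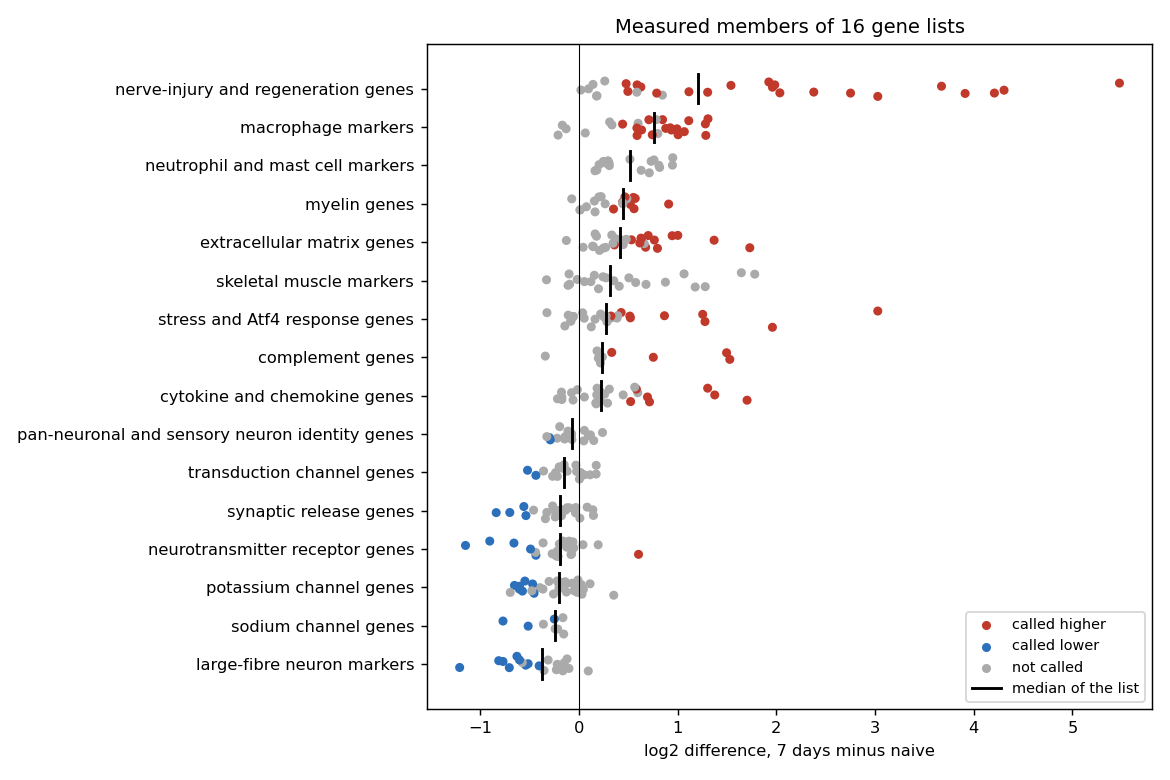
Log2 difference between 7 days and naive (horizontal axis) for the measured members of 16 of the gene lists, 1 point per gene, red where called higher, blue where called lower and grey where not called. The black bars mark each list's median, from 1.21 for injury genes and 0.76 for macrophage markers down to -0.38 for large-fibre markers.

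Of 26 macrophage genes 17 were called higher and none lower (median 0.76), against 3.95% of all genes. Mrc1, the mannose receptor of tissue macrophages, was 9.82, 9.74 and 9.18 at 7 days and 8.12 to 8.50 in naive ganglia (median 8.24). It rose by 1.31 ± 0.19 (adjusted p = 5.69e-06). Ms4a7, a macrophage membrane protein, rose by 1.29 ± 0.16 (neqc 0.66), and Fcer1g, the signalling chain of Fc receptors, by 1.28 ± 0.15. Aif1 (Iba1), the usual histological marker, was 7.67, 8.23 and 8.12 against 7.09 to 7.45, a rise of 0.74 ± 0.12 (neqc 0.33). Lysozyme Lyz2 rose by 1.11 ± 0.14, or by 0.71 with the mean of its 3 measured probes. P2ry12 (-0.13), Tmem119 (0.07) and Siglech (-0.21), markers of microglia in the brain, did not pass, nor did the vessel-associated macrophage marker Lyve1 (-0.17). The summed signal of the 26 genes was 24770 to 26570 at 7 days and 12790 to 14510 in naive ganglia. Leaving out 7-day array 2 gave 15 calls, and leaving out 7-day array 1 gave 14.

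All 3 chains of complement C1q, which macrophages make, rose. C1qb was 10.86, 10.63 and 10.46 at 7 days and 8.54 to 9.36 in naive ganglia (median 9.21), a 2.82-fold rise (standard error 0.17 on the log2 scale, adjusted p = 1.06e-07). C1qc rose by 1.53 ± 0.17 and C1qa by 0.75 ± 0.17 (neqc 0.37). Of the 9 complement genes measured 4 were higher, against 3.95% of all genes, the last being the inhibitor Cd59a (0.33 ± 0.07). C1qa was not called without 7-day array 1 (adjusted p = 0.0624), nor Cd59a without array 2 (0.149).

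Of 27 cytokine and chemokine genes 7 were higher, against 3.95% of all genes, and none lower. Csf1, the macrophage growth factor, was 8.31, 8.50 and 8.58 at 7 days and 6.91 to 7.46 in naive ganglia (median 7.18), a rise of 1.31 ± 0.16 (adjusted p = 2.66e-07; neqc 0.62). The monocyte chemokine Ccl12 was 8.85, 9.36 and 8.80 against 6.97 to 7.72 and rose by 1.70 ± 0.24 (neqc 0.95). Ccl8 passed as well, but it lay above detection on 1 naive array of 7, so its size is uncertain: the log2 difference was 1.38 ± 0.19, and 0.47 with neqc. Tgfb1, a regulator of inflammation and matrix, rose by 0.72 ± 0.13 (neqc 0.32). Il1b (0.21) and the fractalkine gene Cx3cl1 (-0.07) did not pass. Of 15 antigen presentation genes 4 were higher, all of the MHC class II pathway: Cd74 (0.80 ± 0.15), H2-Ab1 (0.80 ± 0.17), H2-Eb1 (0.72 ± 0.15) and H2-DMa (0.57 ± 0.14). Cd74, the invariant chain, was 11.86, 11.96 and 11.62 against 10.64 to 11.26. H2-DMa was not called without 7-day array 2 (adjusted p = 0.118). The class I genes H2-K1 (-0.21), H2-D1 (-0.13) and B2m (0.06) did not pass.

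None of 17 neutrophil and mast cell genes was called by limma, with 8 at an unadjusted p under 0.05. All 17 differences were positive (median 0.52), as were 4636 of those of all 10519 genes. S100a8, a neutrophil protein, was 12.75, 12.72 and 12.95 at 7 days and 11.25 to 12.94 in naive ganglia (0.95 ± 0.43, adjusted p = 0.244). Naive array 4 gave the 12.94; its summed signal of the list was 15340, against 5993 to 8536 on the other naive arrays and 13660 to 16030 at 7 days. None of 6 lymphocyte markers passed, nor did any have an unadjusted p under 0.05 (limma), and 1 of 22 interferon-stimulated genes did: Ifitm3 (0.38 ± 0.12, adjusted p = 0.0465), a call lost in 8 of the 10 omissions (adjusted p up to 0.27).

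**Figure D3:**
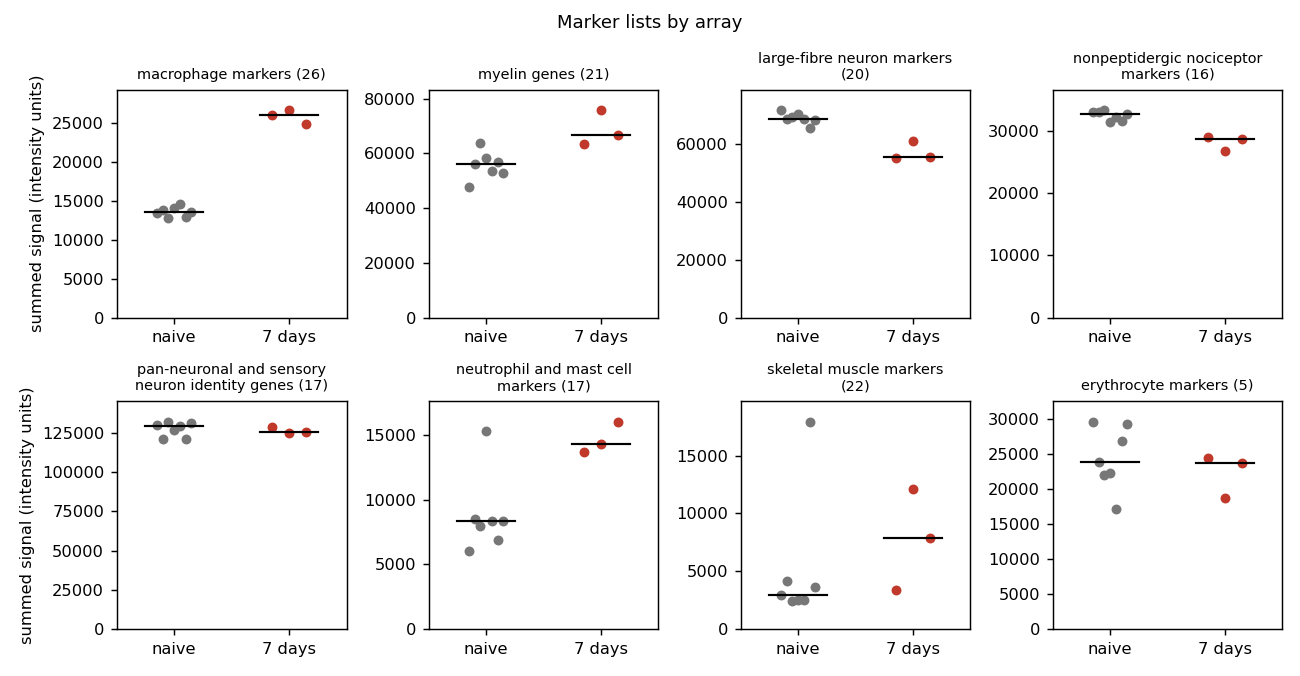
Summed linear signal of 8 marker lists, in intensity units on axes from 0, 1 point per array, with the group median as a bar and the number of measured members in each title. Macrophage markers at 7 days (24770 to 26570) lie above all naive arrays and large-fibre markers below, while neutrophil markers overlap through naive array 4 and muscle markers are highest on naive array 6.

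Of 21 myelin genes of Schwann cells 8 were called higher (median 0.44), against 3.95% of all genes. A positive difference was found in 20 of the 21, and in 4636 of all 10519 genes. Pmp2, a lipid carrier of myelin, was 11.21, 11.59 and 10.73 against 9.53 to 10.99 (median 10.18), a rise of 0.91 ± 0.26 (adjusted p = 0.0267), with array 3 inside the naive range. Mag, an adhesion protein of myelin, was 11.02, 11.30 and 10.86 against 10.16 to 10.80 and rose by 0.56 ± 0.13. Without 7-day array 2 the adjusted p was 0.294 for Pmp2 and 0.119 for Mag. The major myelin gene Mbp did not pass (0.23). Without 7-day array 2 limma called none of the 21 (11 at an unadjusted p under 0.05), and none under median scaling (12); without 7-day array 1 it called 3. Array 2 at 7 days had both the highest summed myelin signal of the 10 arrays (75750) and the high muscle signal given above. The myelin sum was 63320 to 75750 at 7 days and 47880 to 63750 in naive ganglia, so the groups overlapped. Without both naive array 6 and 7-day array 2 limma again called none (11 at an unadjusted p under 0.05). That omission drops the 7-day array high in both signals, so the part of either in these calls cannot be told from it. Of 13 repair Schwann cell genes Igfbp3 (1.27 ± 0.19, neqc 0.76) and Jun were higher, while Shh (-0.36) and Ngfr (-0.10) did not pass.

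Extracellular matrix genes were higher in 13 of 31 cases, against 3.95% of all genes, and lower in none (median 0.42). Mmp16, a membrane-bound metalloproteinase, was 9.32, 9.20 and 8.98 at 7 days and 7.03 to 7.61 in naive ganglia (median 7.51), a rise of 1.73 ± 0.15 (adjusted p = 4.1e-10; neqc 1.03). Itga7, a laminin-binding integrin, was 11.13, 11.43 and 11.24 against 9.68 to 10.18 and rose by 1.37 ± 0.12. Both genes were clear of the naive range on every array. Collagen Col1a1 (1.00 ± 0.20), the protease inhibitor Timp1 (0.95 ± 0.15, neqc 0.59) and the proteoglycan Lum (0.80 ± 0.18) rose as well, Lum no longer past the threshold without 7-day array 1 (adjusted p = 0.0648). Col1a1 was 9.89, 10.02 and 9.34 against 8.38 to 9.09. Of 13 fibroblast and perineurial markers 4 were higher, and their summed signal was 24220 to 27370 at 7 days against 18110 to 21460. Without 7-day array 2 the matrix list had 6 calls and the fibroblast list 2; median scaling gave 5 and 2, and leaving out array 1 gave 8 and 2.

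Among 13 satellite glia markers Aldh1l1 (0.55 ± 0.11, neqc 0.21) and Entpd2 (0.38 ± 0.11) were higher, the latter a call lost in 7 of the 10 omissions (adjusted p up to 0.139). Aldh1l1, a folate enzyme used as an astroglial marker, was 7.71, 7.66 and 7.66 against 6.97 to 7.25. Glul (-0.19) and Fabp7 (-0.44), other markers of these cells, did not pass. Of 22 proliferation genes Kif22 and Prc1, a microtubule-bundling protein of dividing cells (1.46 ± 0.12), were higher. Prc1 was 9.64, 9.99 and 9.78 against 8.15 to 8.52. The rest of the list did not pass, among them Ccnd1 (0.23), Mcm5 (0.01) and Pcna (-0.26), and the list's median was 0.08.

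Further lists held fewer calls. Of 32 tubulin and kinesin genes 4 were higher: Tubb6, Kif22, the stathmin Stmn4 (1.92 ± 0.26, neqc 1.06) and Tubb2b (0.18 ± 0.05, or 0.52 with the mean of its probes). Of 33 axon guidance genes 2 rose, led by the semaphorin Sema4f (0.50 ± 0.12), and 3 fell: Plxna2, a semaphorin receptor (by 0.65 ± 0.19), the netrin-related Ntng1 (by 0.55 ± 0.10) and Sema7a (by 0.49 ± 0.12). Ntng1 gave -0.34 with the mean of its probes, and under median scaling limma called none of the 3 (3 lower at an unadjusted p under 0.05, Ntng1 with an adjusted p of 0.0679). Of 26 neurotrophic genes Igfbp3, Igfbp5 (0.63 ± 0.15) and Igf1 (0.43 ± 0.12, neqc 0.19), all of the insulin-like growth factor system, were higher. Of 23 cathepsin and lysosome genes Cd63 (0.94 ± 0.12), Ctsh (0.77 ± 0.17) and Ctsc (0.71 ± 0.10) were higher. Cd63, a tetraspanin of late endosomes, was 12.82, 12.85 and 12.81 against 11.62 to 12.08. In cholesterol synthesis 1 of 18 genes rose, Hsd17b7 (0.70 ± 0.08), while Hmgcs1 (-0.06) and Fdps (-0.00) did not pass. None of 47 oxidative phosphorylation genes passed (median -0.05), with 4 at an unadjusted p under 0.05 (limma). Calls lost without some 7-day array were those of Tubb2b (adjusted p up to 0.205), Plxna2 (0.211), Sema7a (0.127), Sema4f (0.0518), Igf1 (0.113), Igfbp5 (0.0575) and Ctsh (0.0586). Counting naive arrays too, Tubb2b lost its call in 6 of the 10 omissions and Plxna2 in 5.

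Few markers of other tissues passed. None of 22 muscle markers was called by limma, with 2 at an unadjusted p under 0.05; Myl1, a fast-muscle myosin chain, was 8.81, 11.85 and 10.92 at 7 days and 7.03 to 12.52 in naive ganglia (1.78 ± 1.28, adjusted p = 0.583). None of 5 erythrocyte and 15 endothelial markers passed, with 0 and 1 at an unadjusted p under 0.05 (limma). Of 5 measured spinal cord and oligodendrocyte markers Aqp4 was lower (by 0.51 ± 0.16), a call lost in 6 omissions (adjusted p up to 0.325) and with neqc (-0.22, adjusted p = 0.0751), and Slc1a2 was above detection on 1 naive array and no 7-day array.

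To place 7 days among its neighbours, the group was set directly against 6 days and 8 days, 3 arrays each, with no naive array in the comparison. No gene was called against 6 days, where 455 genes had an unadjusted p under 0.05 (limma), and none with any alternative processing. Against 8 days 1 gene (0.00951%) was called, with 346 at an unadjusted p under 0.05. That gene was Dbp, a transcription factor whose RNA follows the circadian clock. Dbp was 11.42, 11.64 and 11.30 at 7 days and 10.00, 9.56 and 9.36 at 8 days, a difference of 1.81 ± 0.28 (adjusted p = 0.00249). The naive arrays lay between, at 10.74 to 11.24, and Dbp was not called against them (0.54 ± 0.24, adjusted p = 0.218). The call was lost without 7-day array 2 (adjusted p = 0.0561), without 8-day array 3 (0.0729) and under median scaling (0.101). The hour of the day at which ganglia were taken is not given in the sources used here. Npy differed from 6 days by 0.40 ± 0.29 (adjusted p = 0.901) and Sprr1a by -0.07 ± 0.26 (adjusted p = 0.988).

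Against 1 day after injury, 197 genes (1.87%) were called, 157 (1.49%) higher at 7 days and 40 (0.380%) lower. Without 7-day array 2 there were 101, and without 7-day array 1 124. Npy was 8.41, 8.77 and 9.49 at 1 day, so the 7-day arrays lay 3.87 ± 0.29 higher (adjusted p = 4.98e-11). Sprr1a differed by 3.16 ± 0.26, Ecel1 by 2.66 ± 0.22, Cckbr by 2.41 ± 0.27 and Car3 by 2.17 ± 0.45, the last not called without 1-day array 1 (adjusted p = 0.0501). At 1 day Ecel1 (6.89 to 7.19) was close to its naive range, whereas Cckbr (8.35 to 8.84) was already above it. Atf3 differed by -0.03 between the times, with a mean of 10.96 at 1 day.

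Of the 26 macrophage genes 11 were higher at 7 days than at 1 day and none lower. Lyz2 was higher by 1.24 and Fcer1g by 1.16, and C1qb by 1.29. The class II genes H2-Ab1 (1.34), Cd74 (1.21) and H2-Eb1 (1.15) were higher too, and their 1-day means lay below the naive means.

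The genes lower at 7 days than at 1 day with the largest differences had 2 patterns. Socs3, a brake on cytokine signalling, was 9.84, 10.26 and 10.09 at 1 day and 9.05, 9.18 and 8.96 at 7 days, a 7-day mean lower by 1.0 ± 0.18 (adjusted p = 0.000673), and it was not called against naive (0.30 ± 0.15, adjusted p = 0.314). Msh6, a DNA mismatch repair protein (-1.31 ± 0.14), and the olfactory receptor gene Olfr920 (-1.10 ± 0.17), above detection on 1 array at 7 days, were likewise lower, with 7-day values inside their naive ranges. Calb2 (-1.20 ± 0.17) and Cartpt (-1.01 ± 0.22) instead lay below naive at 7 days. Cartpt was not called without 1-day array 1 (adjusted p = 0.112) or 7-day array 2 (0.0917). Calb2 at 1 day, at 8.87 to 9.35, overlapped its naive range. Bdnf, not called against naive at 7 days, was lower than at 1 day by 0.83 (adjusted p = 0.00093).

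**Figure D4:**
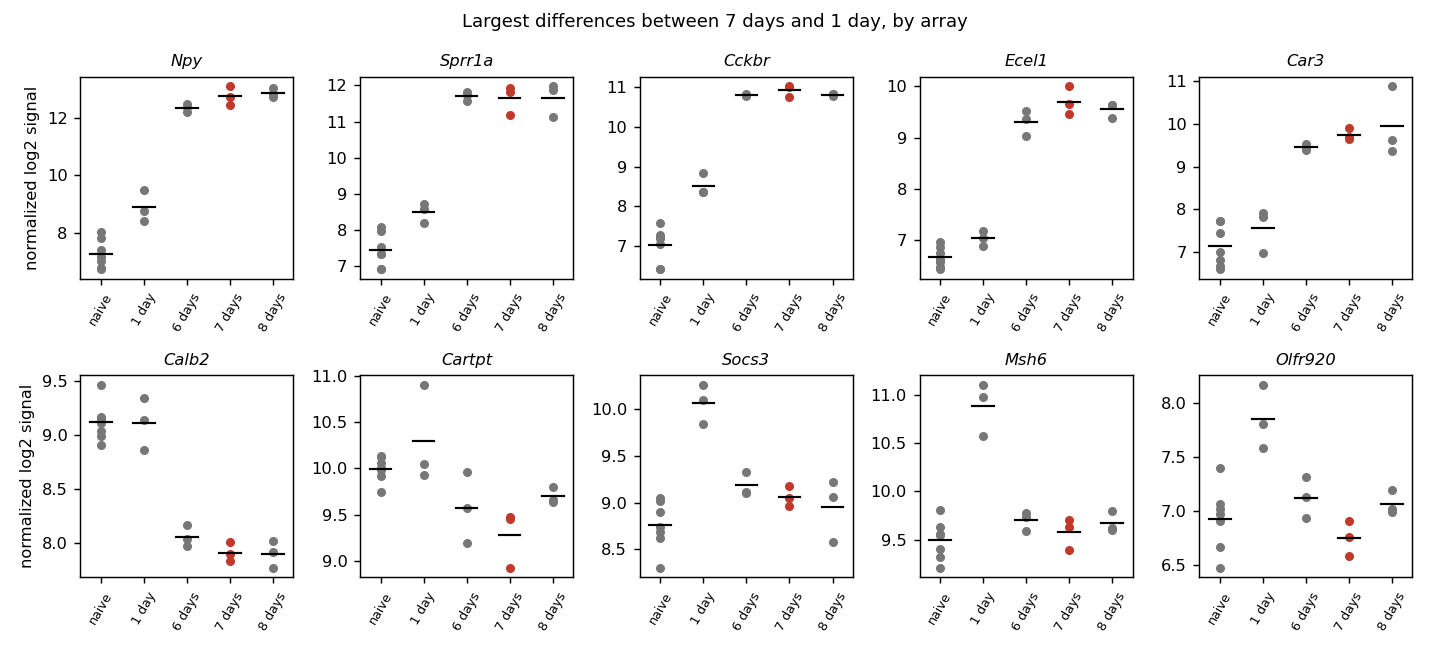
Normalized log2 signal (vertical axis, its range set per gene and not starting at 0) of the 5 genes with the largest called differences in each direction between 7 days and 1 day, by time group, 1 point per array, bars at the group means and 7 days in red. Npy, Sprr1a, Cckbr, Ecel1 and Car3 are higher at 6, 7 and 8 days than at 1 day, while Socs3, Msh6 and Olfr920 lie higher at 1 day than in the other groups drawn.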

How the data were processed

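Per the labels' protocols, total RNA was amplified to biotinylated cRNA for Illumina bead arrays. The deposited table has, per the file headers, 1 signal column (intensity) and 1 detection p-value column for each array, over 25697 probes. A second deposited table holds the authors' log2 values, within 0.038 of the log2 of quantile-normalized signals. The detection p-values of 37 of 40 arrays do not follow their own signals, so the detection level (6.85) is the mean over the other 3 (6.82 to 6.88).

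Background was corrected by normexp (offset 50), followed by quantile normalization and log2. Probes above the level on at least 3 of 40 arrays were kept (15462). Each gene is its kept probe with the highest mean (10519 genes, 2819 with several probes). Of all probes, 23978 have 1 gene symbol and 1719 none; 23962 matched RefSeq names of GRCm38.p6. Genes were tested with limma 3.58.1 (R 4.3.3), fitting the 13 group means to all 40 arrays (eBayes with a trend), and Benjamini-Hochberg adjustment within each comparison at a threshold of 0.05. Errors are standard errors. Where no naive array lay above detection, a fold is a lower bound with values raised to the level. Marker sums add the linear signals of a list's measured genes. The code was tested on simulated data.

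The groups, gene lists and named genes were chosen with earlier results of these data known. Named genes are the 12 largest rises and falls among called genes whose 7-day arrays all lie beyond the naive ones, up to 4 called members per list (the 2 brightest where fewer than 2 were called), 14 genes named at the start (Calca was not measured), and the 5 largest per direction against 1, 6 and 8 days. List members named beyond these were picked after their values were seen. Alternatives cover background correction, scaling, filters, probe choice, array weights, blocks and leaving out each array. The run block groups arrays by the numbers in their sample names, 26 to a run, and the labels name no run. The 2 alternatives that concern muscle markers were added after seeing the data. No test was made of a list as a whole.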

Additional observations from a re-analysis of the deposited data

Results flagged for a closer look

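Among the 163 genes and marker sums examined over the 7 naive arrays, 14 had an array far from the others (Dixon's test at 95%); chance gives about 1 in 20. The muscle sum of naive array 6 was 17950, with Atp2a1 at 11.35. The neutrophil and mast cell sum of naive array 4 was 15340, with S100a8 at 12.94 and S100a9 at 11.52; the same array was lowest in C1qb (8.54) and Htr3b (10.02) and highest in Cstdc4 (6.81). Naive array 2 was highest in Gng8 (10.38), Timp1 (8.24) and Vamp1 (11.30), naive array 3 in Entpd2 (10.46) and Mfap5 (10.97), and naive array 1 was lowest in Isl1 (12.56).

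Differences between times were tested directly. Dbp differed by 1.81 between 7 and 8 days (adjusted p = 0.00249). Between 7 days and 1 day, Npy (3.87), Sprr1a (3.16), Ecel1 (2.66), Cckbr (2.41) and Car3 (2.17) were higher at 7 days, and Msh6 (-1.31), Calb2 (-1.20), Olfr920 (-1.10), Cartpt (-1.01) and Socs3 (-1.001) were lower, each with limma's adjusted p at or under 0.00612.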

How the results depend on the processing

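Against naive, median scaling gave 310 calls (245 higher, 65 lower) in place of 636 (415 and 221). Filtering probes by detection on the compared arrays gave 574 (351 and 223). The replicate number as a block gave 379 (249 and 130). Same-numbered arrays correlated at 0.419, 0.00888 and -0.429 in their deviations, and no 7-day array correlated best with its own number. With only 3 such pairs, these values cannot decide whether the numbers pair the arrays. Array weights with robust variances gave 354 lower. Leaving out each array gave 305 to 623 calls (224 to 413 higher, 81 to 228 lower), and leaving out both muscle-rich arrays 278 (210 and 68). Against 1 day, median scaling gave 96 (82 and 14), the compared arrays alone 79 (71 and 8), array weights 82 lower, both muscle-rich arrays left out 102 (82 and 20), and single omissions 101 to 173 (81 to 139 higher, 20 to 37 lower). Against 8 days, median scaling and leaving out both arrays gave 0, the muscle covariate 3, and single omissions 0 to 2; against 6 days the count was 0 in each alternative. Apart from the smaller number of arrays in omissions, the cause was not tested. Of 118 gene values past the threshold, 44 lost the call in at least 1 alternative, 39 of them when a single array was left out. With neqc, which uses the deposited detection p-values, 35 gene values were over 1.5 times closer to 0; Speer1, Nts, Vamp1 and Ntng1 also moved so with the mean of their probes, and Tubb2b gave 0.52.

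Sign changes befell genes that did not pass. Npy1r gave -0.005172 (median scaling), -0.04907 (array weights), -0.02414 (replicate block), -0.000278 (without both muscle-rich arrays), -0.007109 (muscle covariate) and -0.05087 to 0.07688 in omissions. Ifi27 gave -0.004774, -0.007956 and -0.03956 in the first 3 of these and -0.003905 to 0.0668 in omissions. Bdnf gave -0.002567 (median scaling), -0.0182 (run block, inferred from sample numbers) and -0.02037 to 0.07385 in omissions. With the run block, Fdps gave 0.008779, Mrgprd 0.05184 and Gabbr1 0.033; omissions gave -0.03655 to 0.04358, -0.2341 to 0.1444 and -0.3906 to 0.1279. Prf1 gave 0.007212 with array weights and Hba-a1 0.01718 without both arrays. Omissions gave Hmgcs1 -0.09622 to 0.005348, Hbb-bt -0.09835 to 0.5503, Ramp2 -0.006681 to 0.1316 and Cox6a1 -0.08589 to 0.02334.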

Other observations

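The next 12 rises after those described, chosen after their values were seen, held several signalling genes. Nts, the neuropeptide neurotensin, was 8.80, 10.68 and 10.12 at 7 days and 7.39 to 8.47 in naive ganglia, a rise of 1.98 ± 0.33 (limma, adjusted p = 7.43e-05) that was 1.15 with the mean of its probes; array 1 was much lower than the others. Ucn, the stress peptide urocortin, was above detection on none of the naive arrays and at 8.20, 8.53 and 8.63 at 7 days, a rise of at least 3.03-fold. Fst, which binds activin, was 9.23, 8.96 and 8.85 against 6.79 to 7.04 (2.12 ± 0.19). Slc6a4, the serotonin transporter, was 8.38, 8.46 and 8.40 with no naive array above detection, a rise of at least 2.95-fold.

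Others in that group are genes known mainly from skin or testis: Lipn, an epidermal lipase (at least 3.19-fold), Cstdc4, of the cystatin family (at least 3.69-fold), Speer1 (at least 2.71-fold), Taf7l, a testis form of a general transcription factor (at least 1.95-fold), and Wfdc3 (1.76 ± 0.19, above detection on 2 naive arrays). Lipn was 8.63, 8.44 and 8.51 at 7 days, 5.98 to 6.49 in naive ganglia and 6.39 on average at 1 day. The genes given with a bound, among them Ucn and Slc6a4, were kept through injured arrays alone. The filter therefore favoured a rise in them, and their calls are not separate support. With the mean of its probes Speer1 rose by 1.26, below its bound. Each bound holds for the main background correction only: with neqc the log2 differences were 0.85 for Lipn, 0.96 for Cstdc4, 0.69 for Speer1, 0.46 for Taf7l, 0.80 for Wfdc3, 0.79 for Ucn, 0.78 for Slc6a4 and 1.09 for Fst, the first 4 and those of Ucn and Slc6a4 below their bounds and all past the threshold. Among the next 12 falls were Esrrb, an orphan nuclear receptor (by 0.75 ± 0.13, neqc -0.29), Rem2, an inhibitor of calcium channels (by 0.71 ± 0.10), and Sphkap, an anchoring protein of protein kinase A (by 0.69 ± 0.09). Rem2 was 8.86, 8.58 and 8.89 against 9.30 to 9.64.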
